A study of Mus musculus with 48 samples.

Results

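The 37 genes described here handle cholesterol in the cell: 19 enzymes of its synthesis, 7 genes that regulate synthesis or uptake or move sterol within the cell, and 11 genes of sterol efflux, oxysterol signalling, storage and the lysosome. They are 37 of the 36854 genes of the count table, each with 1 entry of its own, found by matching Ensembl identifiers to symbols. The members were selected on the measured difference between 20 Gy and 0 Gy in these same tumours, in which sterol genes were lower after 20 Gy. Every comparison of 20 Gy with 0 Gy, the combination with antibody included, is therefore a description. Genes past the threshold of the fit over all genes are still counted there as called, but these counts come from the values that chose the members and are no evidence about them. The comparisons of antibody at 1 dose did not choose the members and are given as tests. The comparison of tumour kinds at 0 Gy is tested too, but reuses the control tumours of the dose comparison. Differences between dose differences are built from the values that chose the members and are descriptions as well.

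The tumours were 48 mouse sarcomas harvested 3 days after treatment, whose poly(A) RNA was sequenced in bulk. Primary tumours (32) arose in p53FL/FL mice of strain background 129/SvJae, 6 to 10 weeks old, in the gastrocnemius muscle after an injection of Adeno-Cre, which deletes the floxed p53 alleles in the cells it reaches, and then of 300 µg of the carcinogen MCA. Allografts (16) grew in the same muscle of syngeneic mice from 50000 cells of 1 line of such a p53/MCA sarcoma, line 402230, so the allografts are tumours of a single line, and p53 loss and MCA are shared by every group. At a volume of about 150 mm3 each mouse received 200 µg of muDX400, a murine antibody against the T cell receptor PD-1, or of an isotype control, followed by 0 or 20 Gy of X-rays to the left hind limb. The 8 groups are the combinations of kind, dose and antibody, with 4 allografts or 8 primary tumours in each. The labels give the tumours only as separate samples of a group, so every error here is the spread between those samples.

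Cells make cholesterol from acetyl-CoA. The mevalonate arm builds isoprenoid units and joins them to farnesyl diphosphate, and the sterol arm turns that through squalene and lanosterol into cholesterol. When sterol in the endoplasmic reticulum is low, SCAP carries the transcription factor SREBP-2, the product of Srebf2, to the Golgi for activation, and SREBP-2 raises transcription of the synthesis genes. INSIG proteins hold SCAP back when sterol is plentiful. The liver X receptors, encoded by Nr1h3 and Nr1h2, are activated by oxysterols and raise transcription of the efflux transporters Abca1 and Abcg1. In tumours these genes are used both by cancer cells, which need membrane sterol to divide, and by macrophages, which take up and export the lipid of dead cells.

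Promoter windows of 5 members are shown because 4 of them are synthesis genes that stood lower after 20 Gy in both tumour kinds and the fifth, Ch25h, stood higher. Each runs 5′ to 3′ from 250 bases before to 50 bases after the gene's start, as RefSeq gives it on GRCm38.p6. Capitals mark 2 motifs searched on both strands: TCACNCCAC, a core form of the sterol regulatory element that SREBP binds, and CCAAT, the site of the factor NF-Y. A match on the other strand shows as its reverse complement. No 2 of the marked motifs overlap in the windows printed. The windows are chr13:119690101-119690400, plus strand for Hmgcs1, chr13:8885356-8885655, plus strand for Idi1, chr5:4104648-4104947, minus strand for Cyp51, chr8:64733529-64733828, minus strand for Msmo1 and chr19:34475099-34475398, minus strand for Ch25h.
Hmgcs1: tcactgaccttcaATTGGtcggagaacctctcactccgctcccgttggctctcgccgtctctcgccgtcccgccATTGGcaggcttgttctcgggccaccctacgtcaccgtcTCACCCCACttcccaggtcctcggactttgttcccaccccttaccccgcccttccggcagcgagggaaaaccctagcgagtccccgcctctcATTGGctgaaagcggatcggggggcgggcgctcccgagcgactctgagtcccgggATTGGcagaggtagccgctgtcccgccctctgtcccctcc
Idi1: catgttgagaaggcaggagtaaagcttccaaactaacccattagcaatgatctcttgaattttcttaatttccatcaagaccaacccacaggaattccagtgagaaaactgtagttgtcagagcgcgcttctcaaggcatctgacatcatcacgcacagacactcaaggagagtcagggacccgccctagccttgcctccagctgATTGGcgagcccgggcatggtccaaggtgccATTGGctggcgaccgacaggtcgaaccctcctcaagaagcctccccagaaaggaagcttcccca
Cyp51: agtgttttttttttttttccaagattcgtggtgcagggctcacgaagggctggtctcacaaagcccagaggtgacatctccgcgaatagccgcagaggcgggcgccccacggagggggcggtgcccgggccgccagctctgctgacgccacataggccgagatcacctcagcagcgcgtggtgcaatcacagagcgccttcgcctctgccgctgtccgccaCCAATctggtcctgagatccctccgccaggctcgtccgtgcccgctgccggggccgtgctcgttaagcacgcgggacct
Msmo1: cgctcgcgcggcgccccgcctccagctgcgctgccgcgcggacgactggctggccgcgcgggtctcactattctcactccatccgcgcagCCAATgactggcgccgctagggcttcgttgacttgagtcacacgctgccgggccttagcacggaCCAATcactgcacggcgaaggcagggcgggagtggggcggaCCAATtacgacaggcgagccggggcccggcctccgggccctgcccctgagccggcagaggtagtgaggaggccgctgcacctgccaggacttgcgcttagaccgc
Ch25h: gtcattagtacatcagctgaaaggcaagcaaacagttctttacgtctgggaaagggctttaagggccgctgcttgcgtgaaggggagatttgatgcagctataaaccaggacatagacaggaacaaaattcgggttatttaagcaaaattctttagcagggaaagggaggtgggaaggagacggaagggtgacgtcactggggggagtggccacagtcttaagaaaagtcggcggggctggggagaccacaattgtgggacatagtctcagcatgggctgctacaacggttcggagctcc

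The Hmgcs1 window held 1 match to TCACNCCAC and 4 to CCAAT. Idi1 held 2 matches to CCAAT, Cyp51 held 1, Msmo1 held 3 and Ch25h held 0, and none of these 4 windows held TCACNCCAC. Promoter windows were found for 31 of the 37 members, not for Fdps, Fdft1, Sqle, Stard4, Abcg1 and Npc1. Among the 31, only Hmgcs1 had TCACNCCAC, which was present in 1.24% of all 32851 windows. CCAAT was present in 37.4% of all windows and in at least 1 window of 41.1% of 27025 genes. It was present in 15 of the 16 matched synthesis genes (93.8%), the exception being Acat2. It was present in 5 of 6 matched regulators and in 4 of 9 matched genes of efflux, storage and the lysosome (44.4%). A match is a run of letters and not a measured binding site, and no match says nothing about a factor.

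The depth per tumour, in megacounts (M), ran from 31.8 to 54.0 M with a median of 41.2 M. Levels are CPM, the counts of a gene per megacount, on library sizes scaled with edgeR's TMM factors. All 6 genes of a mesenchymal list (Col1a1, Col1a2, Col3a1, Pdgfra, Pdgfrb and Vim) exceeded 1 CPM in every tumour. The summed level of 7 skeletal muscle genes, which marks the host muscle, ran from 11.6 to 78770 CPM. Sample identifiers begin with 4 or 5, a digit whose meaning the labels do not give. It was 5 in 4 of 4 allografts at 0 Gy with isotype but in 1 of 4 at 20 Gy with isotype, in 3 of 4 in both anti-PD-1 allograft groups, and in at most 1 of 8 in each primary group. Xist, which is expressed in female cells, exceeded 10 CPM in 1 of the 4 unirradiated and 3 of the 4 irradiated allografts of each antibody, and in 2 to 5 of 8 tumours of the primary groups. In bulk tumours, fewer cells of a type and less RNA per cell cannot be told apart.

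Per kilobase of exon, the member levels at 0 Gy with isotype spanned a wide range. Apoe, the lipid carrier secreted by macrophages and other cells, was the highest, with a mean of 231 CPM per kb in allografts and 521 in primary tumours, and Npc2, a lysosomal sterol carrier, followed with 131.7 and 115.5. Among the synthesis genes Hmgcs1 was at 14.2 and 22.4 CPM per kb, Idi1 at 4.53 and 5.78, and Fdps at 0.409 and 0.641. Fdps is a gene whose counts are uncertain: 64.1% of its 50-base sequences also occur in other genes, 8 of them, and 26.7% of its exon bases overlap Gm43738 on the same strand. The same share was 40.7% for Acat2 (with Acat3 and Tcp1), 30.7% for Fdft1 (with Ctsb, which overlaps it on the other strand, and Gm6781), 28.6% for Idi1 (with 5 Gm-numbered genes) and 19.5% for Tm7sf2 (with Vps51). It was 12.6% for Hmgcs1, 11.7% for Scap and below 10% for the other members. Whether counting used the strand, and how it treated reads shared between genes, is not given in the sources used here. These levels may therefore hold reads of the partner genes or miss reads of the gene itself.

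After 20 Gy the synthesis genes stood lower as a group in both tumour kinds and under both antibodies, while the median of the 11 genes of efflux, oxysterols, storage and the lysosome lay above 0, with 2 to 4 of them called higher and 0 to 3 below 0. The dose differences of this and the next paragraphs are those of the contrast that chose the members, so nothing is read from the counts. The shares over all genes, given once here, are the background for every count of called genes in these comparisons, role by role and list by list. A gene is called when the adjusted p of edgeR's quasi-likelihood test, with Benjamini-Hochberg adjustment over all genes tested, is below 0.05. Of the 37 members, all tested in every fit, 10 were called lower and 2 higher in allografts with isotype, where 0.744% of 17746 genes were called lower and 4.4% higher. With anti-PD-1 it was 11 lower and 4 higher in the allografts (0.828% and 3.13% of all genes). In primary tumours with isotype 18 were called lower and 4 higher, against 6.64% and 7.85% of 17770 genes, and with anti-PD-1 15 lower and 3 higher, against 1.86% and 6.06%. The plot of all 37 dose differences shows the 2 directions by role.

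**Figure D1:**
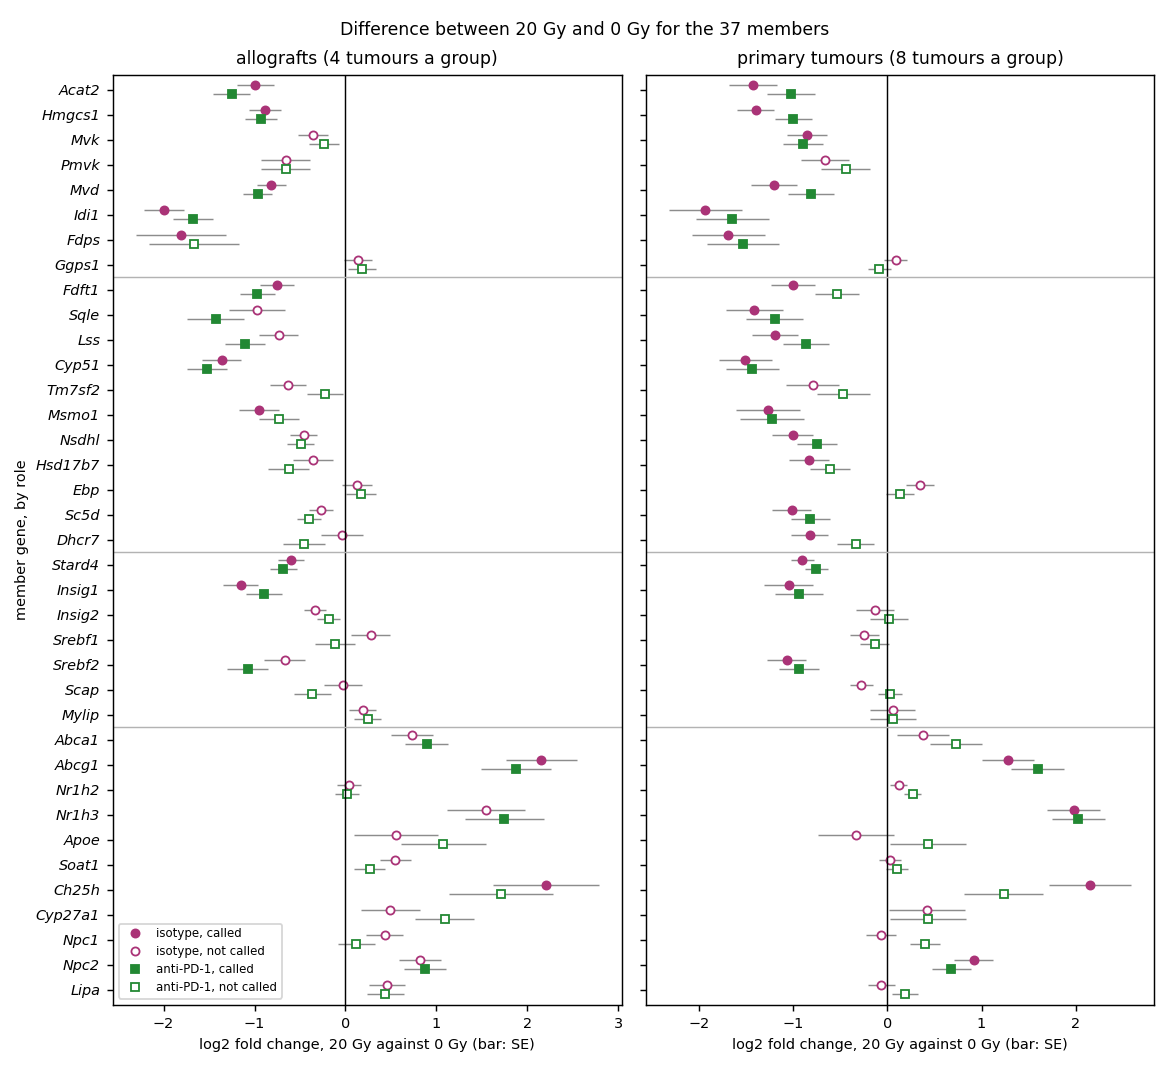
Log2 fold changes of the 37 members between 20 Gy and 0 Gy, with bars of 1 SE, in allografts (left, 4 tumours a group) and primary tumours (right, 8 a group), ordered by role from the mevalonate arm at the top to efflux and lysosome at the bottom. Filled symbols are called and open ones are not; 20 genes lie left of 0 in all 4 comparisons and 10 lie right of 0 in all 4.

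Of the 19 synthesis genes, 8 and 8 were called lower in allografts (isotype and anti-PD-1) and 15 and 12 in primary tumours. None was called higher in any of the 4. Their median log2 fold changes were −0.74, −0.73, −1.02 and −0.82 in that order, beside medians between −0.02 and 0.02 over all genes tested. In the mevalonate arm 5, 4, 6 and 6 of 8 genes were called lower, with medians of −0.85, −0.95, −1.30 and −0.95. In the sterol arm there were 3, 4, 9 and 6 of 11 genes, with medians of −0.63, −0.63, −1.01 and −0.74. Ebp, the sterol isomerase late in the pathway, lay above 0 in all 4 comparisons, and Ggps1, which makes the side product geranylgeranyl diphosphate, in 3 of them. Neither was called.

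Among allografts given isotype the number of calls depended on the tool, on single tumours and on the identifier digit. DESeq2 called 21 members, 15 lower and 6 higher, in place of 12. With the digit as a covariate 2 of the 12 called members were called, Idi1 and Cyp51, while 18 of the 19 synthesis genes lay below 0 with a median of −0.68. With Xist above 10 CPM as a covariate 7 were called and the median was −0.70. Leaving out replicate 1 of the 0 Gy group, replicate 2 of that group or replicate 4 of the 20 Gy group left 7, 6 and 7 called members. For the anti-PD-1 allografts, where 3 of 4 tumours in each group carry the digit 5, a fit of only these 6 tumours gave a median of −0.91 with 0 members called, as did a fit of the 2 groups with all 8 of their tumours (0 called), and without replicate 4 of the 0 Gy group 7 of the 15 were called. In the 2 allograft comparisons 2 of 12 and 0 of 15 called members stayed called in every alternative run.

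The first enzymes of the pathway stood lower after 20 Gy in both kinds. Acat2 (ENSMUSG00000023832, chr17:12942890-12960747, minus strand, GRCm38) is a thiolase that joins 2 acetyl-CoA. In allografts with isotype Acat2 was at 21.9, 28.2, 14.9 and 22.1 CPM at 0 Gy and 11.3, 10.2, 12.1 and 9.35 CPM at 20 Gy. With anti-PD-1 its values were 26.1, 16.8, 20.1 and 29.6 CPM at 0 Gy and 11.5, 7.90, 9.15 and 9.74 CPM at 20 Gy. All irradiated allografts lay below all controls of their antibody group. Primary tumours with isotype spanned 25.1 to 79.3 (median 42.0) CPM at 0 Gy and 12.3 to 26.0 (median 15.0) CPM at 20 Gy, and those with anti-PD-1 19.2 to 45.6 (median 35.2) CPM at 0 Gy and 7.72 to 27.7 (median 14.7) CPM at 20 Gy. Here 7 of 8 irradiated tumours with isotype and 5 of 8 with anti-PD-1 lay below the lowest control. The log2 fold changes were −0.99 (SE 0.20) with isotype and −1.25 (SE 0.20) with anti-PD-1 in allografts, and −1.43 (SE 0.26) and −1.02 (SE 0.26) in primary tumours.

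Hmgcs1 (ENSMUSG00000093930, chr13:119690379-119708260, plus strand) makes HMG-CoA, the substrate of the rate-limiting step. Hmgcs1 in isotype allografts was at 59.4, 81.0, 63.1 and 57.2 CPM at 0 Gy and 29.3, 33.3, 37.2 and 38.7 CPM at 20 Gy. In anti-PD-1 allografts it was at 63.4, 55.6, 63.4 and 93.7 CPM at 0 Gy and 31.3, 38.2, 32.2 and 41.1 CPM at 20 Gy. The 2 doses did not overlap under either antibody. Hmgcs1 in primary tumours spanned 55.6 to 169 (median 105.97) CPM at 0 Gy and 29.5 to 52.1 (median 38.0) CPM at 20 Gy with isotype and 65.7 to 125.05 (median 81.9) CPM at 0 Gy and 37.1 to 66.6 (median 42.4) CPM at 20 Gy with anti-PD-1. All 8 irradiated tumours with isotype lay below the lowest control, and with anti-PD-1 7 of 8 did, replicate 5 being the exception. The log2 fold changes were −0.88 (SE 0.18) with isotype and −0.93 (SE 0.18) with anti-PD-1 in allografts, and −1.40 (SE 0.20) and −1.0 (SE 0.20) in primary tumours, which is 1.84-fold and 2.64-fold lower with isotype in the 2 kinds.

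Idi1 (ENSMUSG00000058258, chr13:8885501-8892451, plus strand) isomerises the isoprenoid unit and had the largest difference of the 19 synthesis genes in all 4 comparisons. Idi1 values were 13.5, 21.5, 12.2 and 16.2 CPM at 0 Gy and 4.48, 3.90, 4.14 and 3.14 CPM at 20 Gy in isotype allografts. They were 19.9, 10.3, 12.9 and 16.7 CPM at 0 Gy and 3.77, 5.02, 5.38 and 4.20 CPM at 20 Gy with anti-PD-1. No irradiated allograft reached the lowest control. In the primary tumours Idi1 spanned 5.06 to 36.6 (median 21.8) CPM at 0 Gy and 2.42 to 8.70 (median 5.28) CPM at 20 Gy with isotype and 8.42 to 37.8 (median 19.1) CPM at 0 Gy and 3.11 to 17.5 (median 4.29) CPM at 20 Gy with anti-PD-1. These groups overlapped: 3 of 8 irradiated tumours with isotype lay below the lowest control, where 1 control was itself at 5.06 CPM, and 7 of 8 with anti-PD-1 did. Idi1 was 3.98-fold and 3.198-fold lower at 20 Gy in allografts and 3.82-fold and 3.13-fold lower in primary tumours. On the log2 scale this is −1.99 (SE 0.22) with isotype and −1.68 (SE 0.22) with anti-PD-1 in allografts, and −1.93 (SE 0.39) and −1.65 (SE 0.39) in primary tumours.

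Mvd (ENSMUSG00000006517, chr8:122433601-122443422, minus strand), the decarboxylase that ends the mevalonate steps, was also lower. Its values in isotype allografts were 14.6, 20.8, 13.3 and 15.4 CPM at 0 Gy and 9.03, 8.35, 9.21 and 9.22 CPM at 20 Gy, and in anti-PD-1 allografts 19.7, 12.8, 15.9 and 18.8 CPM at 0 Gy and 9.72, 7.995, 8.79 and 7.41 CPM at 20 Gy. Mvd in primary tumours spanned 11.6 to 45.3 (median 23.0) CPM at 0 Gy and 7.92 to 17.9 (median 10.8) CPM at 20 Gy with isotype and 13.2 to 30.1 (median 21.4) CPM at 0 Gy and 9.41 to 18.0 (median 11.3) CPM at 20 Gy with anti-PD-1. The allograft doses did not overlap, and 5 and 7 of 8 irradiated primary tumours lay below the lowest control. Log2 fold changes of Mvd were −0.81 (SE 0.16) with isotype and −0.97 (SE 0.16) with anti-PD-1 in allografts, and −1.20 (SE 0.25) and −0.81 (SE 0.24) in primary tumours.

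Fdps (ENSMUSG00000059743, chr3:89093588-89101959, minus strand), the farnesyl diphosphate synthase, is subject to the shared sequence named above. It was counted at 2.51, 1.60, 0.878 and 1.91 CPM at 0 Gy and 0.604, 0.420, 0.521 and 0.380 CPM at 20 Gy with isotype in the allografts, and at 1.32, 1.07, 0.876 and 2.56 CPM at 0 Gy and 0.234, 0.169, 0.511 and 0.861 CPM at 20 Gy with anti-PD-1. Primary tumours had 1.07 to 6.97 (median 1.93) CPM at 0 Gy and 0.470 to 1.27 (median 0.843) CPM at 20 Gy with isotype and 1.24 to 2.88 (median 2.08) CPM at 0 Gy and 0.286 to 2.13 (median 0.570) CPM at 20 Gy with anti-PD-1. The irradiated allografts lay below their controls, and 6 and 7 of 8 irradiated primary tumours did. Its log2 fold changes were −1.81 (SE 0.49) with isotype and −1.67 (SE 0.49) with anti-PD-1 in allografts, and −1.69 (SE 0.39) and −1.53 (SE 0.39) in primary tumours, and it was not called in the anti-PD-1 allografts. Its call in isotype allografts held in 5 of 15 alternatives.

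Mvk and Pmvk, the kinases that phosphorylate mevalonate in turn, differed less. Mvk was at 15.6, 18.8, 15.1 and 17.8 CPM at 0 Gy and 16.5, 12.2, 11.0 and 12.2 CPM at 20 Gy in isotype allografts and at 20.04, 12.8, 15.3 and 15.5 CPM at 0 Gy and 16.8, 12.5, 13.6 and 10.4 CPM at 20 Gy with anti-PD-1, so the doses overlapped. Mvk in primary tumours spanned 14.8 to 46.5 (median 25.9) CPM at 0 Gy and 7.96 to 23.9 (median 14.6) CPM at 20 Gy with isotype and 16.6 to 36.9 (median 26.5) CPM at 0 Gy and 11.1 to 19.6 (median 13.6) CPM at 20 Gy with anti-PD-1. It was called lower only in the 2 primary comparisons, with log2 fold changes of −0.86 (SE 0.21) and −0.90 (SE 0.21), beside −0.35 (SE 0.16) and −0.24 (SE 0.16) in the allografts. Pmvk was at 17.8, 23.3, 13.7 and 15.0 CPM at 0 Gy and 9.15, 9.56, 15.2 and 9.42 CPM at 20 Gy with isotype and 32.03, 12.5, 26.4 and 19.7 CPM at 0 Gy and 11.3, 15.1, 18.7 and 11.6 CPM at 20 Gy with anti-PD-1 in the allografts. Its primary ranges were 9.84 to 37.1 (median 15.7) CPM at 0 Gy and 7.22 to 17.6 (median 12.3) CPM at 20 Gy with isotype and 12.2 to 21.1 (median 16.6) CPM at 0 Gy and 6.54 to 21.8 (median 10.7) CPM at 20 Gy with anti-PD-1. All 4 Pmvk differences lay between −0.66 and −0.45, and none was called.

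Ggps1 stood apart from the rest of this arm. In the allografts it was at 40.9, 36.998, 30.3 and 38.5 CPM at 0 Gy and 53.1, 32.8, 33.4 and 39.5 CPM at 20 Gy with isotype and 35.0, 35.5, 33.8 and 33.8 CPM at 0 Gy and 42.4, 34.9, 46.2 and 31.9 CPM at 20 Gy with anti-PD-1. Ggps1 in primary tumours spanned 27.0 to 35.0 (median 30.1) CPM at 0 Gy and 27.0 to 37.4 (median 32.4) CPM at 20 Gy with isotype and 23.6 to 50.2 (median 29.3) CPM at 0 Gy and 22.3 to 36.3 (median 29.96) CPM at 20 Gy with anti-PD-1. Its doses overlapped in every group and its log2 fold changes lay between −0.09 and 0.18, with SEs of 0.12 to 0.15.

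In the sterol arm Fdft1 (ENSMUSG00000021273, chr14:63145150-63179578, minus strand) makes squalene, the first compound committed to sterol. Fdft1 was at 33.2, 46.5, 43.1 and 36.0 CPM at 0 Gy and 21.1, 25.9, 23.0 and 22.4 CPM at 20 Gy with isotype and at 48.4, 35.1, 32.5 and 58.3 CPM at 0 Gy and 25.2, 16.01, 25.3 and 21.2 CPM at 20 Gy with anti-PD-1 in the allografts. Its primary values spanned 27.1 to 78.5 (median 50.6) CPM at 0 Gy and 17.2 to 36.7 (median 22.7) CPM at 20 Gy with isotype and 27.3 to 63.6 (median 39.7) CPM at 0 Gy and 21.7 to 56.9 (median 23.7) CPM at 20 Gy with anti-PD-1. The allograft doses were apart, and 5 of 8 irradiated primary tumours under each antibody lay below the lowest control. Log2 fold changes were −0.76 (SE 0.19) with isotype and −0.97 (SE 0.19) with anti-PD-1 in allografts, and −1.0 (SE 0.23) and −0.54 (SE 0.23) in primary tumours; the last was not called, and the first call held in 5 of 15 alternatives.

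Lss closes squalene epoxide to lanosterol. It was at 21.9, 22.6, 16.9 and 17.2 CPM at 0 Gy and 11.3, 11.7, 10.1 and 13.3 CPM at 20 Gy with isotype and 18.0, 18.5, 18.0 and 26.4 CPM at 0 Gy and 10.6, 6.30, 7.67 and 12.4 CPM at 20 Gy with anti-PD-1 in the allografts. Lss in primary tumours spanned 18.0 to 49.7 (median 27.3) CPM at 0 Gy and 7.18 to 18.99 (median 13.3) CPM at 20 Gy with isotype and 15.7 to 32.9 (median 25.3) CPM at 0 Gy and 6.64 to 30.6 (median 12.6) CPM at 20 Gy with anti-PD-1. Only 1 of the 8 irradiated tumours in each primary arm reached the lowest control, and none of the allografts did. Its log2 fold changes were −0.74 (SE 0.22) with isotype and −1.11 (SE 0.22) with anti-PD-1 in allografts, and −1.20 (SE 0.25) and −0.87 (SE 0.24) in primary tumours, called in 3 of the 4. Sqle, the squalene epoxidase just before it, had log2 fold changes of −0.97 (SE 0.31) with isotype and −1.43 (SE 0.31) with anti-PD-1 in allografts, and −1.41 (SE 0.30) and −1.20 (SE 0.30) in primary tumours, with calls in the same 3 comparisons.

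Cyp51 (ENSMUSG00000001467, chr5:4081145-4104746, minus strand) takes the first methyl group from lanosterol and was the sterol-arm gene with the largest difference in all 4 comparisons. Cyp51 in isotype allografts was at 40.0, 61.9, 39.4 and 41.3 CPM at 0 Gy and 16.6, 17.5, 18.9 and 16.7 CPM at 20 Gy. Anti-PD-1 allografts had 49.0, 29.4, 41.0 and 60.7 CPM at 0 Gy and 16.9, 11.2, 15.4 and 18.0 CPM at 20 Gy. Every irradiated allograft was below 19 CPM and every control above 29 CPM. In primary tumours Cyp51 spanned 19.96 to 96.5 (median 55.0) CPM at 0 Gy and 10.8 to 33.6 (median 17.4) CPM at 20 Gy with isotype and 32.7 to 67.3 (median 51.6) CPM at 0 Gy and 11.6 to 38.6 (median 15.9) CPM at 20 Gy with anti-PD-1. The primary groups overlapped, with 5 and 7 of 8 irradiated tumours below the lowest control. Cyp51 was 2.57-fold, 2.88-fold, 2.85-fold and 2.70-fold lower at 20 Gy, in the order used above. Cyp51 log2 fold changes were −1.36 (SE 0.22) with isotype and −1.52 (SE 0.22) with anti-PD-1 in allografts, and −1.51 (SE 0.28) and −1.44 (SE 0.28) in primary tumours.

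Msmo1 (ENSMUSG00000031604, chr8:64718139-64733792, minus strand) removes further methyl groups. It was at 27.4, 38.3, 22.0 and 31.7 CPM at 0 Gy and 18.9, 11.9, 16.1 and 14.0 CPM at 20 Gy with isotype and 33.2, 17.3, 25.5 and 38.0 CPM at 0 Gy and 16.9, 16.9, 19.5 and 14.4 CPM at 20 Gy with anti-PD-1 in the allografts. Msmo1 in primary tumours spanned 11.6 to 110 (median 56.1) CPM at 0 Gy and 13.6 to 32.8 (median 23.4) CPM at 20 Gy with isotype and 27.2 to 75.5 (median 43.9) CPM at 0 Gy and 11.3 to 45.7 (median 15.98) CPM at 20 Gy with anti-PD-1. The ranges overlapped in 3 of the 4 comparisons, and 1 control with isotype, at 11.6 CPM, lay below all 8 irradiated tumours. The log2 fold changes of Msmo1 were −0.95 (SE 0.22) with isotype and −0.73 (SE 0.22) with anti-PD-1 in allografts, and −1.27 (SE 0.34) and −1.23 (SE 0.34) in primary tumours; the second was not called, and the first call held in 7 of 15 alternatives.

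Nsdhl works in the same demethylation. It was at 12.7, 17.1, 13.1 and 11.2 CPM at 0 Gy and 10.7, 10.4, 8.80 and 8.79 CPM at 20 Gy with isotype and 15.7, 11.0, 12.6 and 15.9 CPM at 0 Gy and 10.4, 9.01, 9.64 and 9.61 CPM at 20 Gy with anti-PD-1 in the allografts, and spanned 9.99 to 32.4 (median 19.5) CPM at 0 Gy and 8.44 to 11.7 (median 9.58) CPM at 20 Gy with isotype and 9.29 to 23.4 (median 17.3) CPM at 0 Gy and 6.99 to 15.0 (median 10.2) CPM at 20 Gy with anti-PD-1 in the primary tumours. The allograft doses did not overlap, yet the differences of −0.46 (SE 0.15) and −0.49 (SE 0.15) were not called, while those of −1.01 (SE 0.21) and −0.74 (SE 0.21) in primary tumours were. Sc5d (ENSMUSG00000032018, chr9:42251595-42264256, minus strand) is a desaturase of the last steps. In the allografts Sc5d was at 28.4, 28.8, 24.0 and 25.4 CPM at 0 Gy and 23.1, 20.7, 20.5 and 22.4 CPM at 20 Gy with isotype and 22.6, 22.8, 24.3 and 33.3 CPM at 0 Gy and 21.5, 18.9, 18.0 and 18.8 CPM at 20 Gy with anti-PD-1, without overlap between doses. Its primary values spanned 30.6 to 75.1 (median 39.8) CPM at 0 Gy and 14.7 to 29.5 (median 23.8) CPM at 20 Gy with isotype and 24.3 to 55.6 (median 42.9) CPM at 0 Gy and 11.8 to 37.5 (median 23.4) CPM at 20 Gy with anti-PD-1. All 8 irradiated isotype tumours were below the lowest control, but 4 of 8 with anti-PD-1. Log2 fold changes of Sc5d were −0.27 (SE 0.13) with isotype and −0.40 (SE 0.13) with anti-PD-1 in allografts, and −1.02 (SE 0.21) and −0.82 (SE 0.21) in primary tumours, and the primary pair were called. Hsd17b7 and Dhcr7 were called lower in primary tumours with isotype, with log2 fold changes of −0.84 (SE 0.21) and −0.82 (SE 0.20), and in no other of the 4 comparisons. Tm7sf2 was called in none, with differences between −0.79 and −0.23.

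**Figure D2:**
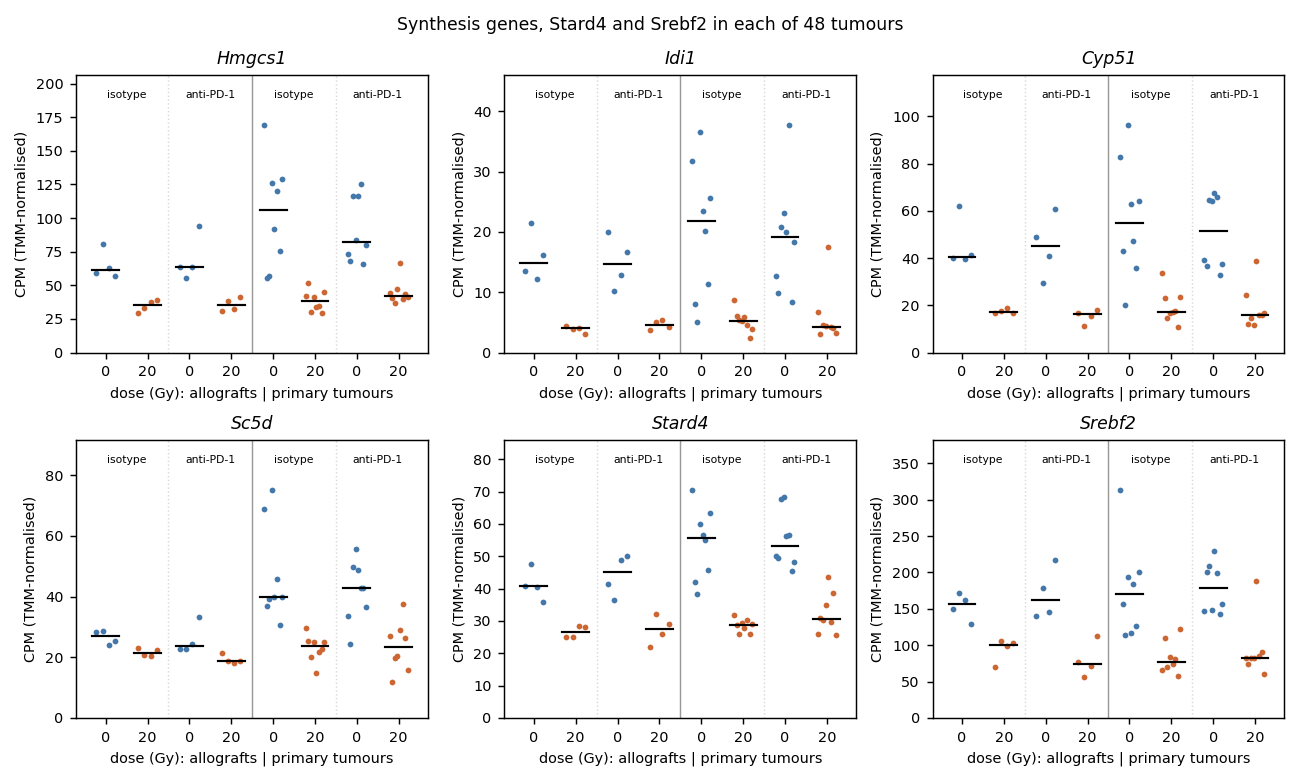
Level (TMM-normalised CPM, axis from 0) of 4 synthesis genes, Stard4 and Srebf2 in each of the 48 tumours by dose, with allografts left and primary tumours right of the grey line and antibody named above; points are tumours and black bars are medians. Stard4 at 20 Gy lies below every control of its group in all 4 pairs, while Idi1 and Cyp51 overlap between doses in the primary tumours.

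Of the 7 regulators and uptake genes, 2, 3, 3 and 3 were called lower in the order used above and 0 higher, with median log2 fold changes of −0.34, −0.37, −0.28 and −0.14. Stard4 (ENSMUSG00000024378) carries sterol between membranes and is a target of SREBP-2. Stard4 was at 40.9, 47.5, 40.3 and 36.0 CPM at 0 Gy and 24.9, 25.1, 28.3 and 28.2 CPM at 20 Gy in isotype allografts. With anti-PD-1 it was at 41.3, 36.5, 49.0 and 49.98 CPM at 0 Gy and 21.9, 32.1, 25.9 and 29.1 CPM at 20 Gy. In the primary tumours Stard4 spanned 38.5 to 70.5 (median 55.7) CPM at 0 Gy and 25.8 to 31.8 (median 28.8) CPM at 20 Gy with isotype and 45.3 to 68.4 (median 53.0) CPM at 0 Gy and 25.6 to 43.5 (median 30.6) CPM at 20 Gy with anti-PD-1. It was the only member whose irradiated tumours lay below every control in all 4 comparisons. Over all genes tested, the irradiated range lay below the control range in 4.67%, 3.39%, 0.445% and 0.124% of genes, and above it in 9.59%, 5.83%, 1.5% and 0.293%, in the same order. Among the members those counts were 17, 14, 3 and 1 below, and 7, 4, 1 and 1 above. Stard4's log2 fold changes were −0.60 (SE 0.14) with isotype and −0.68 (SE 0.15) with anti-PD-1 in allografts, and −0.90 (SE 0.12) and −0.76 (SE 0.12) in primary tumours. Its calls held in 8 of 15 and 12 of 16 alternatives in allografts, and in 24 of 24 in each primary comparison.

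Insig1 (ENSMUSG00000045294, chr5:28071363-28078662, plus strand), which retains SCAP and is itself a target of SREBP, also stood lower. Insig1 was at 42.1, 54.3, 36.0 and 39.1 CPM at 0 Gy and 19.3, 17.9, 20.2 and 18.5 CPM at 20 Gy with isotype and at 45.9, 27.3, 35.4 and 57.3 CPM at 0 Gy and 19.3, 20.5, 27.4 and 20.6 CPM at 20 Gy with anti-PD-1 in the allografts. Its primary values spanned 26.6 to 97.8 (median 44.6) CPM at 0 Gy and 15.5 to 38.9 (median 24.3) CPM at 20 Gy with isotype and 28.3 to 80.3 (median 44.6) CPM at 0 Gy and 18.8 to 46.4 (median 22.5) CPM at 20 Gy with anti-PD-1. Isotype allografts did not overlap, but 1 anti-PD-1 allograft at 20 Gy (27.4 CPM) reached the lowest control (27.3 CPM). Log2 fold changes of Insig1 were −1.15 (SE 0.19) with isotype and −0.90 (SE 0.19) with anti-PD-1 in allografts, and −1.05 (SE 0.26) and −0.94 (SE 0.26) in primary tumours. Insig2, its paralogue, was called in none, with differences between −0.34 and 0.02.

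Srebf2 encodes SREBP-2. It was at 150, 172, 162 and 128.7 CPM at 0 Gy and 70.5, 105.7, 99.3 and 102.3 CPM at 20 Gy in isotype allografts. The anti-PD-1 allografts had 140, 179, 145 and 218 CPM at 0 Gy and 76.8, 56.8, 71.1 and 113.2 CPM at 20 Gy. The 2 doses were apart in all allografts. Srebf2 in primary tumours spanned 114.2 to 313 (median 170) CPM at 0 Gy and 57.0 to 121.999 (median 77.2) CPM at 20 Gy with isotype and 143.3 to 229 (median 178) CPM at 0 Gy and 61.0 to 188 (median 82.4) CPM at 20 Gy with anti-PD-1, and 7 of 8 irradiated tumours in each arm lay below the lowest control. For Srebf2 the log2 fold changes were −0.67 (SE 0.22) with isotype and −1.08 (SE 0.22) with anti-PD-1 in allografts, and −1.07 (SE 0.21) and −0.94 (SE 0.21) in primary tumours, called in all but the first.

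Srebf1, which encodes the SREBP-1 forms that favour fatty acid genes, and Scap differed little. Srebf1 was at 86.7, 78.0, 83.5 and 73.3 CPM at 0 Gy and 84.2, 104.5, 88.4 and 105.5 CPM at 20 Gy with isotype and 64.5, 97.03, 73.9 and 104.5 CPM at 0 Gy and 94.2, 49.0, 66.6 and 99.7 CPM at 20 Gy with anti-PD-1 in the allografts. In primary tumours it spanned 59.7 to 140.8 (median 94.4) CPM at 0 Gy and 56.4 to 123.2 (median 77.5) CPM at 20 Gy with isotype and 84.0 to 131.1 (median 89.7) CPM at 0 Gy and 74.1 to 111.4 (median 86.8) CPM at 20 Gy with anti-PD-1. The Srebf1 doses overlapped in each of the 4 pairs, and its differences lay between −0.24 and 0.28. Scap was at 92.7, 87.7, 105.5 and 79.8 CPM at 0 Gy and 69.6, 95.7, 86.2 and 100.8 CPM at 20 Gy with isotype and 69.6, 106.1, 83.2 and 96.3 CPM at 0 Gy and 75.5, 49.5, 58.4 and 88.9 CPM at 20 Gy with anti-PD-1 in the allografts, and spanned 71.7 to 115.3 (median 92.2) CPM at 0 Gy and 52.6 to 104.4 (median 74.6) CPM at 20 Gy with isotype and 76.7 to 97.4 (median 86.1) CPM at 0 Gy and 70.7 to 120.7 (median 82.0) CPM at 20 Gy with anti-PD-1 in primary tumours. Its differences lay between −0.37 and 0.03. Those of Mylip, a ubiquitin ligase induced by LXR that lowers lipoprotein receptors, lay between 0.06 and 0.24. None of these 3 genes was called.

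A single level per tumour, the geometric mean of the 19 synthesis genes, shows how the tumours are ordered. It ran from 18.2 to 25.4 CPM (median 20.7) in isotype allografts at 0 Gy and from 11.8 to 13.5 CPM (median 12.7) at 20 Gy. With anti-PD-1 it ran from 17.1 to 25.6 CPM (median 21.5) and from 10.0 to 12.8 CPM (median 12.7). Neither allograft pair overlapped. In primary tumours it ran from 15.1 to 46.2 CPM (median 27.4) at 0 Gy and from 11.5 to 16.8 CPM (median 13.5) at 20 Gy with isotype. With anti-PD-1 it ran from 18.1 to 32.8 CPM (median 26.2) and from 11.1 to 23.0 CPM (median 13.1). The controls were more spread than the irradiated tumours in the isotype arm: the ratio of the highest to the lowest tumour had a median over the 19 genes of 3.16 at 0 Gy and 2.20 at 20 Gy, beside 1.42 and 1.32 in isotype allografts. With anti-PD-1 the order was the reverse in primary tumours, at 2.22 and 3.17, and the same in allografts, at 1.69 and 1.58.

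Single tumours carried much of that spread. Among the primary controls with isotype, replicate 4 was the highest in 12 of the 19 genes and replicate 1 in the other 7, and replicate 3 was the lowest in 13. Among primary tumours with anti-PD-1 at 20 Gy, replicate 5 was the highest in 12 of 19, with a geometric mean of 23.0 CPM where the next highest tumour had 14.7 CPM. That tumour also had the highest summed level of 8 cell cycle genes of its group (791 CPM) and the lowest summed level of 8 macrophage genes (816 CPM).

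**Figure D3:**
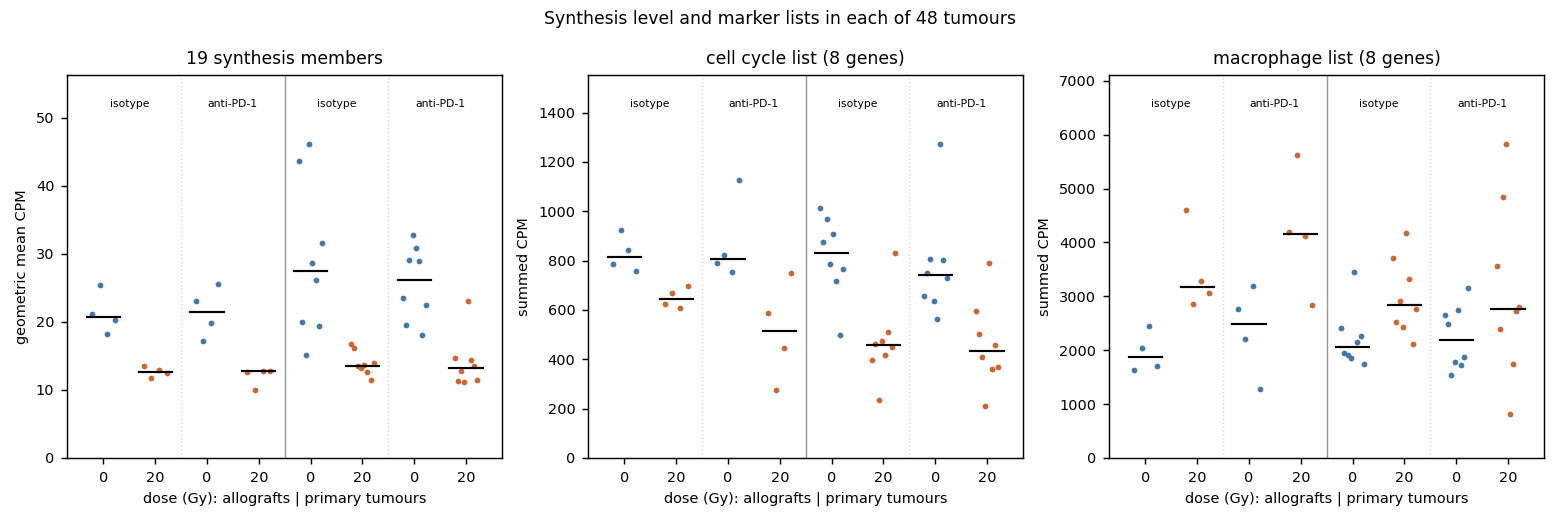
Geometric mean CPM of the 19 synthesis genes (left), summed CPM of 8 cell cycle genes (middle) and of 8 macrophage genes (right) in each of the 48 tumours, with groups and symbols by dose as labelled and black bars for medians. The synthesis level at 20 Gy stays below 17 CPM in all tumours but 1, a primary tumour with anti-PD-1 at 23.0 CPM.

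Markers of division and of other cells were read in the same groups, where all genes were called lower in 0.744%, 0.828%, 6.64% and 1.86% and higher in 4.4%, 3.13%, 7.85% and 6.06%. The 8 cell cycle genes (Mki67, Top2a, Ccnb1, Cdk1, Birc5, Aurkb, Plk1 and Bub1) lay below 0 in all 4 dose comparisons, with 0, 2, 6 and 4 of 8 called lower and medians of −0.42, −0.78, −0.80 and −0.81. Their summed level ran from 760 to 924 CPM at 0 Gy and from 607 to 698 CPM at 20 Gy in isotype allografts, and from 498 to 1013 CPM and from 234 to 831 CPM in primary tumours with isotype. The 8 macrophage genes (Adgre1, Csf1r, Cd68, Mrc1, C1qa, C1qb, C1qc and Mertk), 0 of them at 0 in any tumour, had 1, 1, 3 and 2 members called higher, Cd68 in each comparison, and medians of 0.90, 0.87, 0.67 and 0.57. Their sum ran from 1638 to 2452 CPM at 0 Gy and from 2855 to 4594 CPM at 20 Gy in isotype allografts, and from 1739 to 3453 CPM and from 2116 to 4176 CPM in primary tumours with isotype. With anti-PD-1 the sums were 1277 to 3192 and 2841 to 5633 CPM at 0 and 20 Gy in allografts, and 1546 to 3148 and 816 to 5835 CPM in primary tumours. Neutrophil genes (S100a8, S100a9, Csf3r, Cxcr2 and Mmp9) had medians of −0.19, −0.34, 2.50 and 1.85, with 0, 1, 1 and 1 of 5 called higher, Csf3r each time. Their summed level had medians of 153.0 CPM at 0 Gy and 254.5 CPM at 20 Gy in isotype allografts and of 162.3 and 330.8 CPM with anti-PD-1, opposite in direction to the medians over genes. It had medians of 236 and 224 CPM in primary tumours with isotype, and of 258 and 697 CPM with anti-PD-1, and its ranges overlapped in all 4 pairs. The 6 mesenchymal genes had medians of 0.19, −0.56, −0.51 and −0.33, with 0, 0, 1 and 1 called lower, Vim both times. Adipocyte genes had medians of −4.20, 0.33, −0.43 and 2.08 with 0 called, and 5 of 5 were at an unadjusted p below 0.05 in isotype allografts, where 3222 of 17746 genes were. Their sum in these allografts was 0.0477, 5.22, 9.95 and 138.4 CPM at 0 Gy and 0.214, 1.04, 4.38 and 0.101 CPM at 20 Gy. These doses overlapped, and 4 of the 5 genes were at 0 in some tumour of each group. The adipocyte sum had medians of 7.59 and 0.626 CPM at 0 and 20 Gy there, 22.4 and 27.9 CPM in anti-PD-1 allografts, and 2.09 and 0.537 CPM with isotype and 4.31 and 10.3 CPM with anti-PD-1 in primary tumours. In isotype allografts endothelial genes (Pecam1, Cdh5, Kdr and Tek) had 1 of 4, Kdr, called higher. The endothelial sum had medians of 202.3 and 358.1 CPM at 0 and 20 Gy there, and 243.0 and 296.2 CPM in anti-PD-1 allografts. In primary tumours it had medians of 324.4 and 197.3 CPM with isotype, the other direction, and 250.2 and 346.0 CPM with anti-PD-1. The part of these cell populations and of division in the sterol gene differences was not tested. With the skeletal muscle list as a covariate, the synthesis medians were −0.73, −0.74, −0.97 and −0.83, with 8, 8, 15 and 13 genes called lower.

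Among the 11 genes of efflux, oxysterols, storage and the lysosome, 2, 4, 4 and 3 were called higher and 0 lower, with median log2 fold changes of 0.55, 0.89, 0.38 and 0.43. Abcg1 (ENSMUSG00000024030, chr17:31057675-31117988, plus strand) exports sterol to lipoprotein particles. In isotype allografts Abcg1 was at 45.6, 43.0, 104.3 and 32.2 CPM at 0 Gy and 269, 196, 243 and 280 CPM at 20 Gy. With anti-PD-1 it was at 63.2, 88.0, 104.9 and 28.2 CPM at 0 Gy and 293, 283, 234 and 228 CPM at 20 Gy. All irradiated allografts exceeded all controls. Abcg1 in primary tumours spanned 32.3 to 84.3 (median 48.3) CPM at 0 Gy and 88.8 to 178 (median 113.5) CPM at 20 Gy with isotype and 27.3 to 68.1 (median 46.9) CPM at 0 Gy and 36.6 to 252 (median 125.6) CPM at 20 Gy with anti-PD-1. Isotype tumours did not overlap, and 7 of 8 irradiated anti-PD-1 tumours exceeded the highest control, replicate 5 at 36.6 CPM being the exception. Abcg1 was 4.45-fold, 3.66-fold, 2.43-fold and 3.03-fold higher. For Abcg1 the log2 fold changes were 2.15 (SE 0.39) with isotype and 1.87 (SE 0.38) with anti-PD-1 in allografts, and 1.28 (SE 0.28) and 1.60 (SE 0.28) in primary tumours.

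Abca1 exports sterol to apolipoprotein A-I. It was at 98.7, 99.01, 90.1 and 93.2 CPM at 0 Gy and 137.3, 122.3, 141.8 and 220 CPM at 20 Gy with isotype and 74.2, 84.9, 95.3 and 94.5 CPM at 0 Gy and 138.7, 244, 101.2 and 159 CPM at 20 Gy with anti-PD-1 in the allografts. In primary tumours Abca1 spanned 44.7 to 241 (median 111.7) CPM at 0 Gy and 113.7 to 229 (median 145) CPM at 20 Gy with isotype and 42.7 to 181 (median 135.4) CPM at 0 Gy and 76.6 to 307 (median 212) CPM at 20 Gy with anti-PD-1. The allografts were apart, and the primary tumours overlapped, with 0 of 8 isotype and 5 of 8 anti-PD-1 irradiated tumours above the highest control. Its log2 fold changes were 0.73 (SE 0.23) with isotype and 0.89 (SE 0.24) with anti-PD-1 in allografts, and 0.38 (SE 0.28) and 0.73 (SE 0.28) in primary tumours, and only the second was called; that call held in 3 of 16 alternatives.

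Nr1h3 (ENSMUSG00000002108, chr2:91184061-91202834, minus strand) encodes LXR alpha, which is prominent in macrophages and liver. It was at 11.9, 13.7, 23.3 and 15.1 CPM at 0 Gy and 74.9, 29.9, 35.6 and 44.8 CPM at 20 Gy in isotype allografts. With anti-PD-1 it was at 34.8, 9.13, 27.2 and 9.66 CPM at 0 Gy and 82.4, 56.6, 91.6 and 36.7 CPM at 20 Gy. Nr1h3 in primary tumours spanned 2.02 to 7.13 (median 4.74) CPM at 0 Gy and 6.85 to 23.8 (median 19.8) CPM at 20 Gy with isotype and 4.12 to 8.14 (median 4.85) CPM at 0 Gy and 10.5 to 40.9 (median 19.9) CPM at 20 Gy with anti-PD-1. The doses were apart in both allograft pairs and in primary tumours with anti-PD-1, and 7 of 8 irradiated isotype tumours exceeded the highest control. Log2 fold changes of Nr1h3 were 1.55 (SE 0.43) with isotype and 1.75 (SE 0.43) with anti-PD-1 in allografts, and 1.98 (SE 0.28) and 2.03 (SE 0.28) in primary tumours, called in all but the first; the second call held in 9 of 16 alternatives. Nr1h2 (ENSMUSG00000060601, chr7:44549616-44553951, minus strand), the widely expressed LXR beta, was at 95.2, 83.6, 93.5 and 78.5 CPM at 0 Gy and 85.3, 95.6, 87.1 and 86.2 CPM at 20 Gy with isotype and 89.6, 88.3, 88.1 and 96.8 CPM at 0 Gy and 94.3, 70.5, 92.8 and 104.9 CPM at 20 Gy with anti-PD-1 in the allografts. It spanned 50.5 to 75.9 (median 64.9) CPM at 0 Gy and 64.6 to 75.7 (median 69.7) CPM at 20 Gy with isotype and 53.7 to 80.0 (median 65.6) CPM at 0 Gy and 64.6 to 91.8 (median 77.5) CPM at 20 Gy with anti-PD-1 in primary tumours. These overlapped throughout, with differences between 0.02 and 0.27 and 0 calls.

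Ch25h (ENSMUSG00000050370, chr19:34473778-34475164, minus strand) makes 25-hydroxycholesterol, an oxysterol that holds SREBP back, and is known to be induced by interferon in macrophages. Ch25h in isotype allografts was at 20.3, 13.4, 21.3 and 21.01 CPM at 0 Gy and 225, 47.1, 29.95 and 47.3 CPM at 20 Gy. Allografts with anti-PD-1 had 23.8, 22.4, 22.7 and 22.5 CPM at 0 Gy and 148, 22.3, 63.0 and 63.0 CPM at 20 Gy. Irradiated isotype allografts exceeded all controls, with replicate 1 far above the rest, while 1 anti-PD-1 allograft at 20 Gy lay below its controls. Primary tumours spanned 4.86 to 29.7 (median 11.2) CPM at 0 Gy and 23.6 to 84.5 (median 66.2) CPM at 20 Gy with isotype and 6.67 to 29.1 (median 16.9) CPM at 0 Gy and 6.63 to 85.1 (median 37.4) CPM at 20 Gy with anti-PD-1, and 7 and 5 of 8 irradiated tumours exceeded the highest control. Its log2 fold changes were 2.20 (SE 0.58) with isotype and 1.71 (SE 0.57) with anti-PD-1 in allografts, and 2.16 (SE 0.44) and 1.23 (SE 0.42) in primary tumours, and the 2 with isotype were called; the call in allografts held in 5 of 15 alternatives, and without replicate 1 at 20 Gy the difference was 1.16 and not called. Cyp27a1, which makes 27-hydroxycholesterol, and Soat1, which esterifies sterol for storage, lay above 0 in all 4 comparisons, up to 1.09 and 0.55, and neither was called.

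Npc2 (ENSMUSG00000021242, chr12:84754562-84773152, minus strand) hands sterol to the lysosomal membrane. Npc2 was at 797, 796, 586 and 686 CPM at 0 Gy and 1801, 918, 1079 and 1188 CPM at 20 Gy with isotype and 852, 658, 852 and 595 CPM at 0 Gy and 1636, 1255, 1601 and 889 CPM at 20 Gy with anti-PD-1 in the allografts. In primary tumours it spanned 368 to 1155 (median 573) CPM at 0 Gy and 875 to 1479 (median 1198) CPM at 20 Gy with isotype and 402 to 877 (median 625) CPM at 0 Gy and 744 to 1371 (median 929) CPM at 20 Gy with anti-PD-1. Irradiated allografts exceeded all controls, and 5 and 4 of 8 irradiated primary tumours exceeded the highest. Its log2 fold changes were 0.82 (SE 0.23) with isotype and 0.87 (SE 0.23) with anti-PD-1 in allografts, and 0.92 (SE 0.21) and 0.68 (SE 0.21) in primary tumours, called in all but the first. The call in anti-PD-1 allografts held in 4 of 16 alternatives and that in primary tumours with anti-PD-1 in 12 of 24. Npc1, its membrane partner, and Lipa, the lysosomal lipase that frees sterol from esters, were not called, with differences between −0.07 and 0.43 and between −0.06 and 0.46. Apoe had log2 fold changes of 0.55 (SE 0.46) with isotype and 1.08 (SE 0.47) with anti-PD-1 in allografts, and −0.33 (SE 0.40) and 0.43 (SE 0.40) in primary tumours, of both signs and none called.

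**Figure D4:**
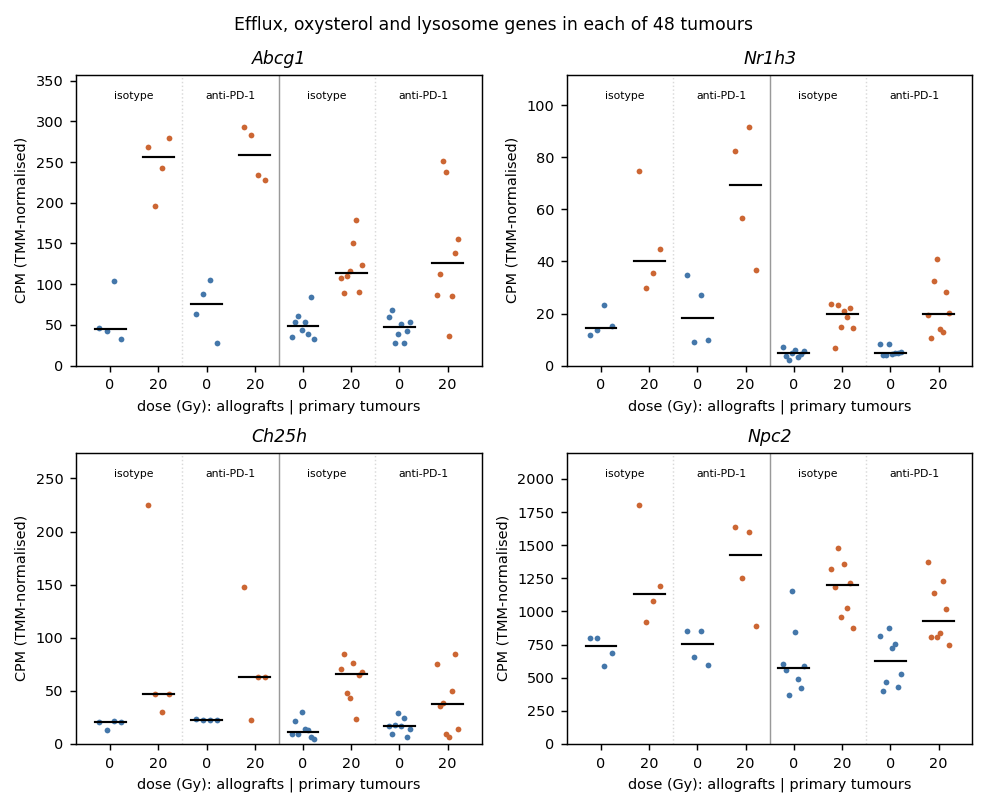
Level (TMM-normalised CPM, axis from 0) of Abcg1, Nr1h3, Ch25h and Npc2 in each of the 48 tumours by dose, laid out as the plot of synthesis genes, with black bars for medians. Irradiated allografts exceed every control of their antibody group for Abcg1, Nr1h3 and Npc2, and 1 isotype allograft at 20 Gy has Ch25h at 225 CPM.

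For both treatments together, set against unirradiated isotype tumours, 14 members were called lower and 4 higher in allografts, against 2.23% and 7.43% of all genes, and 18 lower and 6 higher in primary tumours, against 4.98% and 8.78%. These comparisons share their 0 Gy isotype controls with the isotype comparison. Idi1 was at −1.79 (SE 0.22) in allografts and −1.75 (SE 0.39) in primary tumours, and Nr1h3 at 2.05 (SE 0.44) and 2.28 (SE 0.29). In the combination Abca1 and Nr1h2 were called higher in primary tumours, at 0.84 (SE 0.28) and 0.27 (SE 0.09), calls that held in 9 and 15 of 24 alternatives.

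The antibody itself was tested, since it did not choose the members, and no member was called. At 0 Gy the log2 fold changes of the 37 members between anti-PD-1 and isotype ran from −0.26 to 0.35 in allografts and from −0.48 to 0.32 in primary tumours. At 20 Gy they ran from −0.43 to 0.50 and from −0.60 to 0.79. The smallest adjusted p of a member by edgeR's quasi-likelihood test was 0.9999 and 0.682 in allografts at 0 and 20 Gy, and 0.9998 and 0.596 in primary tumours. DESeq2 also called 0 members in each of the 4. Over all genes edgeR called 0.0% in each of the 4, with 299, 682, 412 and 1443 genes at an unadjusted p below 0.05 (allografts at 0 and 20 Gy, primary tumours at 0 and 20 Gy).

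Of the members, 0, 0, 0 and 1 had an unadjusted p below 0.05. That one was Npc1 in primary tumours at 20 Gy, with 0.37 and a 95% interval of 0.05 to 0.68. The intervals are wide enough to hold moderate differences: for Hmgcs1 they were −0.27 to 0.41 in allografts and −0.56 to 0.20 in primary tumours at 0 Gy, and for Idi1 −0.53 to 0.31 and −0.84 to 0.64. The difference of the dose differences between antibodies, which is built from the values that chose the members, is given as a description: edgeR called 0 members in either kind, and 0.0% of all genes in both. In allografts the differences of log2 fold changes ran from −0.49 (Ch25h) to 0.59 (Cyp27a1), with 0 at an unadjusted p below 0.05. In primary tumours they ran from −0.92 (Ch25h) to 0.76 (Apoe), with 1, again Npc1 (0.47, 95% interval 0.02 to 0.91, adjusted p 0.971 by edgeR). Over all genes 269 of 17746 in allografts and 756 of 17770 in primary tumours were below that unadjusted limit. DESeq2 called 0 members in both.

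The dose differences of the 2 kinds were set against each other in a fit of all 48 tumours, again as a description of values that chose the members. With isotype the difference of log2 fold changes (primary minus allograft) had a median of −0.38 over the 19 synthesis genes, beside −0.02 over all 19327 genes, and edgeR called 0 members and 0.00517% of all genes, 1 gene. At an unadjusted p below 0.05 there were 4 members, Soat1 (−0.51), Dhcr7 (−0.77), Sc5d (−0.73) and Lipa (−0.51), whose adjusted p was 0.476 to 0.50. Over all genes 1914 of 19327 were below that limit, so the 4 are near the background. For Hmgcs1 the difference was −0.50 with a 95% interval of −1.10 to 0.10, and for Abcg1 −0.87 (−1.80 to 0.07). With anti-PD-1 the synthesis median was 0.04, 0 members and 922 of all genes had an unadjusted p below 0.05, and 0.0% of all genes were called. DESeq2 called 0 members in both. The intervals of Idi1, −1.05 to 1.19 with isotype and −1.08 to 1.16 with anti-PD-1, leave room for a difference of 2-fold either way.

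At 0 Gy with isotype both liver X receptor genes were lower in primary tumours than in allografts, and Sc5d and Acat2 were higher. By edgeR's quasi-likelihood test these were the 2 members called lower and 2 called higher, beside 3.99% and 6.03% of 17357 genes, so the share of members called was near that of all genes. DESeq2, and a fit of all 48 tumours, each called 7 members. All 4 allografts grew from 1 line, so their spread is not a spread between lines. A difference particular to that line cannot be told apart here from one of tumour kind. Nr1h3 was at 2.02 to 7.13 CPM (median 4.75) in the 8 primary tumours and at 11.9, 13.7, 23.3 and 15.1 CPM in the 4 allografts. Its groups did not overlap, and the log2 fold change was −1.80 (SE 0.28), 3.48-fold lower, with an adjusted p of 0.00226. For the comparison of kinds, the share of all genes without overlap was not counted. Nr1h2 was at 50.5 to 75.9 CPM (median 64.9) against 95.2, 83.6, 93.5 and 78.5 CPM, again apart, with −0.44 (SE 0.11) and an adjusted p of 0.0299. Their targets Abcg1 (−0.17, 95% interval −0.79 to 0.46) and Abca1 (0.34, −0.29 to 0.97) were not called. The 8 macrophage genes had 1 member, Mrc1, called higher in primary tumours and a median of 0.25. Of the T cell genes 4 of 6 were called lower (Cd3d, Cd3e, Cd3g and Cd8a), of the neutrophil genes 1 of 5 lower (Csf3r) and of the mesenchymal genes 2 of 6 higher (Col1a2 and Pdgfrb). The part of these cells in the differences was not tested.

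Of the 2 members called higher in primary tumours, Sc5d was at 30.6 to 75.1 CPM (median 39.8) against 28.4, 28.8, 24.0 and 25.4 CPM, without overlap, with a log2 fold change of 0.81 (SE 0.22) and an adjusted p of 0.0390. Acat2 was at 25.1 to 79.3 CPM (median 42.0) against 21.9, 28.2, 14.9 and 22.1 CPM, with overlap, 1.06 (SE 0.31) and an adjusted p of 0.0450. Of the 19 synthesis genes 17 lay above 0, with a median of 0.46 beside 0.01 over all genes tested, and 2 were called. These 0 Gy tumours are the controls of the dose comparison that chose the members, so the levels of synthesis genes in them are not independent of that choice. In all, 13 of 37 members had an unadjusted p below 0.05 by edgeR, beside 4526 of the 17357 genes tested. Nr1h3 was called in all 18 alternatives, Nr1h2 in 12, Sc5d in 8 and Acat2 in 7. Leaving out any 1 of the 4 allografts left 1 called member, Nr1h3, and leaving out primary replicate 1, 6 or 8 left 2. The identifier digit is 5 in all 4 of these allografts and in none of the 8 primary tumours, so the digit and the tumour kind cannot be told apart here.

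**Figure D5:**
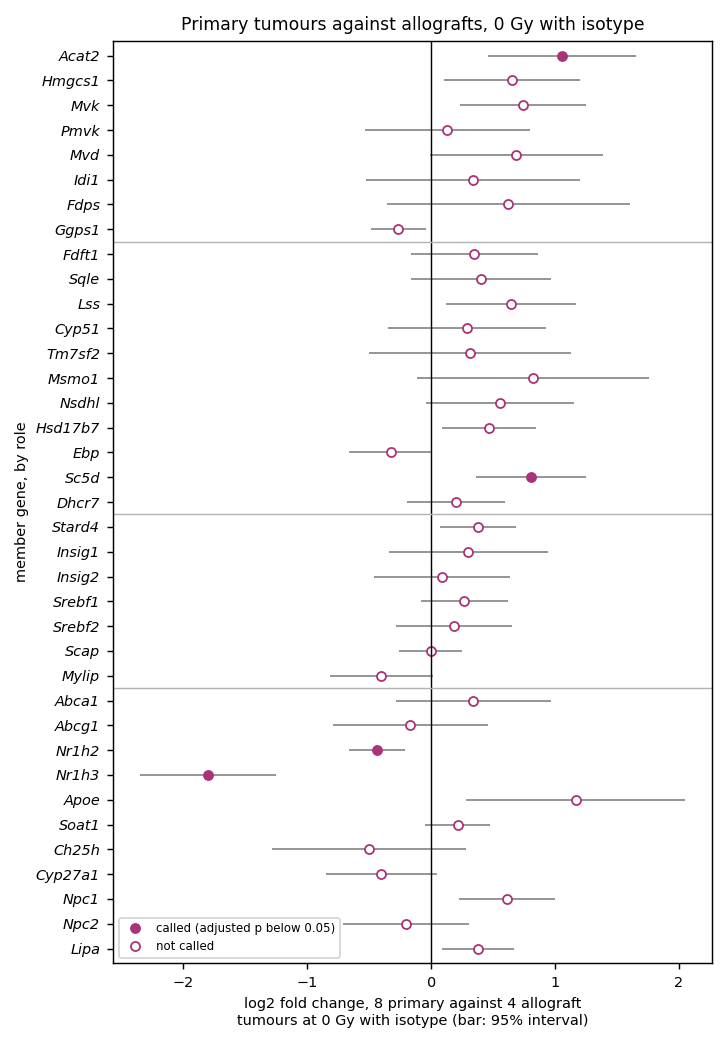
Log2 fold change of the 37 members between 8 primary tumours and 4 allografts at 0 Gy with isotype, with 95% intervals, ordered by role; filled points are called at an adjusted p below 0.05. Nr1h3 lies at −1.80, apart from the other members, and 17 of 19 synthesis genes lie right of 0.

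Other genes of the same programmes, taken from lists that hold no member, differed in part. Of 16 SREBP targets of fatty acid and acetyl-CoA metabolism, 2, 4, 10 and 3 were called lower after 20 Gy and 0 higher, where 0.744%, 0.828%, 6.64% and 1.86% of all genes were called lower, with medians of −0.25, −0.38, −0.65 and −0.45. Elovl6, an elongase of saturated fatty acids, was called in all 4, at −0.82, −1.06, −1.50 and −1.19. Fads2, a desaturase of polyunsaturated fatty acids, was at −0.65, −1.56, −1.93 and −1.29, and Scd2, which makes monounsaturated fatty acids, at −0.88, −1.51, −1.33 and −0.86, each called in all but the first. Fasn, the fatty acid synthase, was called in none, at 0.18, −0.58, −0.63 and −0.72. Of 13 tested genes of LXR response and sterol transport, 2, 2, 1 and 2 were called higher and 0 lower, where 4.4%, 3.13%, 7.85% and 6.06% of all genes were called higher, so the third count is at the background. Stard3, a sterol carrier of late endosomes, was called in all 4, at 0.75, 0.72, 0.51 and 0.55, and Pltp, which transfers phospholipid between lipoproteins, at 1.52, 1.56, 0.85 and 1.0, in all but the third. In the comparison of tumour kinds at 0 Gy, 3 of the 16 SREBP targets (Aacs, Acss2 and Elovl5) and 1 of the 13 LXR and transport genes (Cyp7b1) were called higher in primary tumours, where 6.03% of all genes were.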

How the data were processed

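Bulk messenger RNA of 48 mouse sarcomas was measured. The authors deposited 1 table of whole-number read counts per Ensembl gene (36854 genes, 48 columns, each matched to 1 sample by name; 0 columns of unlisted samples). Per the submitters' processing notes, Trimmomatic 0.36, STAR 5.5.4b, HTSeq and mm10 were used; their settings, the annotation and the strand option are not given in the sources used here. Per the labels, libraries were stranded and poly(A)-selected, from RNA with an integrity number above 7. Symbols came from GENCODE M21 (GRCm38), which named 36796 genes and left 58 unnamed, and promoters from RefSeq (GRCm38.p6). Depth was 31.8 to 54.0 megacounts a tumour, and counting error is largest for Fdps, the member with the lowest counts, near 1 CPM.

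Genes passing filterByExpr by group were scaled by TMM and tested with edgeR 4.0.16 (quasi-likelihood, R 4.3.3), with Benjamini-Hochberg adjustment over all genes tested, called at an adjusted p below 0.05. The 4 groups of a kind shared 1 fit. The comparison of kinds at 0 Gy used its 2 groups alone, and the interactions with kind used all 48 tumours. The SE is the log2 fold change divided by the square root of F, and 95% intervals are 1.96 SE either side. Alternatives were DESeq2 1.42.0, its size factors, no filter, other sample sets, covariates and leaving out each tumour.

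The members and lists were chosen with earlier results of these data known. Values in every allograft, and the lowest, median and highest primary value, are given for members called in the isotype dose comparison of both kinds, for the 3 further members of each role with the smallest p in primary tumours with isotype, and for members called in a comparison that did not choose them. Some pathway genes are not reported here. Marker lists of T cells, neutrophils, adipocytes, endothelium, mast cells and hepatocytes were also read.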

Additional observations from a re-analysis of the deposited data

Results flagged for a closer look

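A tumour was set apart when its gap to the nearest other tumour of its group was large against the group's range by Dixon's 95% limit. Of 296 combinations of member and group 26 met this, where 14.8 would at a rate of 1 in 20. That rate takes the combinations as independent, while 8 of the 26 came from 1 tumour, so nothing is read from the excess.

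Replicate 5 of the primary tumours with 20 Gy and anti-PD-1 was set apart in this way as the highest of its group for 8 members: Hmgcs1 (66.6 CPM), Mvd (18.0 CPM), Idi1 (17.5 CPM), Fdps (2.13 CPM), Fdft1 (56.9 CPM), Lss (30.6 CPM), Insig1 (46.4 CPM) and Srebf2 (188 CPM). Replicate 4 of the allografts with 0 Gy and anti-PD-1 was set apart as the highest for 4 members: Sqle (78.9 CPM), Lss (26.4 CPM), Sc5d (33.3 CPM) and Nr1h2 (96.8 CPM). No other tumour was set apart for more than 2 members. Tumours could also be the highest or lowest for further members without being set apart, and only the members that met the limit are named.

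Among the other allografts, replicate 2 at 0 Gy with isotype was the highest for Cyp51 (61.9 CPM) and the lowest for Ch25h (13.4 CPM), and replicate 4 of that group was the lowest for Soat1 (88.7 CPM). At 20 Gy with isotype the highest tumours were replicate 1 for Ch25h (225 CPM), replicate 2 for Nr1h2 (95.6 CPM), replicate 3 for Pmvk (15.2 CPM) and replicate 4 for Mylip (71.6 CPM). At 20 Gy with anti-PD-1 replicate 3 was the highest for Insig1 (27.4 CPM).

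Among the other primary tumours, replicate 1 at 0 Gy with isotype was the highest for Srebf2 (313 CPM) and replicate 7 for Abca1 (241 CPM). Replicate 1 at 20 Gy with isotype was the highest for Mvd (17.9 CPM). Replicate 6 at 0 Gy with anti-PD-1 was the highest for Ggps1 (50.2 CPM). At 20 Gy with anti-PD-1 replicate 1 was the highest for Mvk (19.6 CPM) and replicate 4 for Cyp27a1 (46.8 CPM).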

How the results depend on the processing

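Of 2298 fold changes of called members under an alternative, 2298 kept their direction and 251 were no longer called; of 10097 of uncalled members, 617 changed sign. In isotype allografts (12 members called at 20 Gy) DESeq2 called 21, the identifier digit as a covariate left 2, Xist as a covariate left 7, and leaving out 1 tumour gave 6 to 11. In anti-PD-1 allografts (15 called) a fit of only the 2 groups gave 0, as did the tumours whose identifier starts with 5, and leaving out 1 tumour gave 7 to 16. For tumour kinds at 0 Gy (4 called) DESeq2 gave 7, no filter 1, Xist as a covariate 2, a fit of all 48 tumours 7, and leaving out 1 tumour 1 to 5. The cause was not tested; the smaller fits hold fewer tumours. Leaving out 1 tumour gave 22 to 24 in primary tumours with isotype (22 called), 15 to 21 with anti-PD-1 (18), 13 to 19 and 20 to 25 for the combination (18 in allografts, 24 in primary tumours). The counts of 0 for the antibody and the interactions stayed 0 in every alternative run. The covariates Xist and the fits by identifier digit were chosen after seeing the data, apart from the digit as a covariate. Depth limits Fdps, counted near 1 CPM, more than the other members, and its count may also miss shared reads.

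No paired analysis was possible because the labels give no replicate numbers; numbers here follow accession order and pair nothing.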

Other observations

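Genes of other cells that handle sterol were read from lists in the same tumours. Hepatocyte genes (Alb, Apoa1, Ttr and Serpina1a), which would mark carried-over liver, summed to at most 401 CPM, in an allograft with 20 Gy and anti-PD-1, with group medians between 0.834 and 15.6 CPM. Adipocyte genes (Adipoq, Plin1, Cidec, Lep and Cfd) summed to at most 138.4 CPM, in an allograft with 0 Gy and isotype, with group medians between 0.537 and 27.9 CPM. Mast cell genes (Cpa3, Kit, Tpsb2 and Ms4a2) had group medians of 46.1 and 17.1 CPM at 0 and 20 Gy in isotype allografts and of 92.9 and 43.2 CPM in primary tumours with isotype, and with anti-PD-1 of 62.3 and 30.8 CPM and of 89.7 and 34.8 CPM. T cell genes (Cd3e, Cd3d, Cd3g, Cd2, Cd8a and Cd4) had group medians of 70.0 and 62.1 CPM in isotype allografts and of 20.5 and 36.0 CPM in primary tumours with isotype. With anti-PD-1 the medians were 38.8 and 30.4 CPM in primary tumours, where 20 Gy was the lower one, and the allografts ranged from 60.7 to 194 CPM at 0 Gy and from 63.4 to 181 CPM at 20 Gy.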
